A study of Mus musculus with 8 samples.

Results

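The loci described here are those of 8 genes of mucous and gastric-type secretory epithelium, *Muc1*, *Muc4*, *Tff1*, *Tff2*, *Tff3*, *Agr2*, *Spdef* and *Lgals4*, in FOXA1 and HNF4G Hi-ChIP of mouse pancreatic cancer cells. Hi-ChIP captures contacts between distant genomic fragments and enriches them for fragments carrying a chosen protein, and each contact is reported as a loop between a pair of anchors. The samples were 2 replicates of each factor in a KPC tumor cell line and in the isogenic KPC liver metastasis (liver mets) cell line, 8 samples in all, of WT genotype and untreated. The titles spell the lines "KPC tumour" and "KPC Liver mets", and each is a single cell line. Both were grown in DMEM with 10% FBS. A single loop list per group was used, covering both replicates, so values per replicate and their spread were not available and no test between groups was made.

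A loop was counted for a gene when an anchor lay within 2 kb of any annotated start of that gene, or when both anchors lay within 100 kb of such a start. This gave 680 of the 249200 distinct loops of the 4 lists, of which 274 had an anchor at a start and 406 lay within 100 kb only. The FOXA1 lists of liver mets and tumor numbered 125623 and 104136 loops and those of HNF4G 78098 and 76323, over 30542 anchors in all. Of these, 423 and 367 (FOXA1) and 330 and 299 (HNF4G) were at these loci. Sets of 4 values below keep this order, FOXA1 before HNF4G and liver mets before tumor. Read depth is unknown. Intervals below are 95% intervals (exact Poisson for a number of loops, Clopper-Pearson for a ratio of 2 numbers, Wilson for a share), and they cover counting error only, because loops share anchors and come from pooled replicates. A contact present in fewer cells and a contact that is rarer in each cell cannot be told apart in such lists.

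Mucins are heavily glycosylated proteins that coat epithelia. MUC1 and MUC4 are anchored in the cell membrane, whereas gel-forming mucins are secreted. Trefoil factors (TFF1, TFF2 and TFF3) are small peptides secreted together with mucus, AGR2 is an endoplasmic reticulum protein disulfide isomerase used in mucin folding, SPDEF is an ETS transcription factor of goblet and mucous cells, and galectin-4 (*Lgals4*) is a lectin of the gut epithelium. FOXA1 is a forkhead pioneer factor and HNF4G is a nuclear receptor of endodermal epithelia.

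Of the 8 genes, 6 had an anchor at a start and 2 (*Tff3* and *Agr2*) had none in any list. Across the genome, 49.7% of 21755 protein-coding genes had such an anchor. *Muc1* (ENSMUSG00000042784, chr3:89229057-89233381, plus strand, mm10) had its start in the anchor chr3:89225642-89235196. *Lgals4* (ENSMUSG00000053964, chr7:28833854-28841708, plus strand) had 3 anchors at its annotated starts and *Spdef* (ENSMUSG00000024215, chr17:27714352-27728955, minus strand) had 2. *Tff1* (ENSMUSG00000024032, chr17:31161395-31165277), *Tff2* (ENSMUSG00000024028, chr17:31141049-31144282) and *Tff3* (ENSMUSG00000024029, chr17:31125306-31129646) lie next to each other on the minus strand. *Agr2* (ENSMUSG00000020581) lies at chr12:35992907-36004087 on the plus strand.

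The 2 kb limit fell between *Muc4* and *Tff3*. *Muc4* (ENSMUSG00000079620, chr16:32735886-32782391, plus strand) was just inside it, with the anchor chr16:32738141-32740658 at 1.944 kb from its nearest annotated start and 2.255 kb from its first. *Tff3* was just outside, with its nearest anchor, chr17:31132727-31135815, at 3.081 kb. *Agr2* was farther away, with its nearest anchor, chr12:35980483-35985785, at 7.122 kb upstream.

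The DNA at these anchors was read to show what the loops connect. The sequences below are from RefSeq and its GRCm38.p6 genome (the mm10 build), written 5′ to 3′. The first pair are the 250 bases before the RefSeq starts of *Muc1* (chr3:89228806-89229055) and *Lgals4* (chr7:28833544-28833793), shown because both starts lay inside an anchor. The others are windows of 300 bases free of annotated exons, taken from the plus strand where an anchor held the most matches to the motifs searched. They are the anchor between *Tff3* and *Tff2* (chr17:31135097-31135396), a *Muc1* partner with no annotated gene (chr3:89197369-89197668), the *Spdef* start anchor, in an intron (chr17:27726561-27726860), and the anchor upstream of *Agr2* (chr12:35981488-35981787). Capitals mark matches to the forkhead motifs TGTTTAC and TGTTTGC or the HNF4-type motif CAAAGTC, on either strand.
Muc1 upstream: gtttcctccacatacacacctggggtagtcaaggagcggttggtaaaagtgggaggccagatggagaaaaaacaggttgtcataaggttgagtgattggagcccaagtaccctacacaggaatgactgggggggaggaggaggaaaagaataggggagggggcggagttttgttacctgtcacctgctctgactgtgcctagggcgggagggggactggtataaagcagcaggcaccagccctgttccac
Lgals4 upstream: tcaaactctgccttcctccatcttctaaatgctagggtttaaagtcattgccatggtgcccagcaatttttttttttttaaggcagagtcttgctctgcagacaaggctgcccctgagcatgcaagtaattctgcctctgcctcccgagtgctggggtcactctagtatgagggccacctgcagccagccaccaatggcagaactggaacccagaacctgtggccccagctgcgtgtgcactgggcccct
Tff3-Tff2 anchor: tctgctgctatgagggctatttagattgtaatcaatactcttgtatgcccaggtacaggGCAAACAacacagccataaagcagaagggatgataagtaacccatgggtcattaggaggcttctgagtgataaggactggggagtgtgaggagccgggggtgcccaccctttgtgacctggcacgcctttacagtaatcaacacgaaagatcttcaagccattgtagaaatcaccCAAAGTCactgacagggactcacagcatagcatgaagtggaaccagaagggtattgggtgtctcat
Muc1 partner: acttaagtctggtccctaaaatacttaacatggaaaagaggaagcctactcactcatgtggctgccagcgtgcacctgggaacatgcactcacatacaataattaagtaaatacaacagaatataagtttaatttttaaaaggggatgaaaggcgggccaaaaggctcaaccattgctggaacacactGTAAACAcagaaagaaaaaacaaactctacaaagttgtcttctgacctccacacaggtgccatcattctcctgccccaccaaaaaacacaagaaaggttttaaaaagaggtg
Spdef start anchor: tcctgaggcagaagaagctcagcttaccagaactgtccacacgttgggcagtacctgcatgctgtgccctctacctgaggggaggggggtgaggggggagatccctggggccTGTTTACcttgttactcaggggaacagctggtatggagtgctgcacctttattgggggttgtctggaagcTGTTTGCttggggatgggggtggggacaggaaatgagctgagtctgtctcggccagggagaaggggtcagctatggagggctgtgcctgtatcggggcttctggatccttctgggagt
Agr2 upstream anchor: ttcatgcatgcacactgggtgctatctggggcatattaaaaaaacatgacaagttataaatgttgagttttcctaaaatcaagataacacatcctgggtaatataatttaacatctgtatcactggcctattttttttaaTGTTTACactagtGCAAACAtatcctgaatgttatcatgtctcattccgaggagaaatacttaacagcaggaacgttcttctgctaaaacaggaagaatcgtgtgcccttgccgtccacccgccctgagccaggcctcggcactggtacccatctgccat

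None of the 3 motifs was found in the 250 bases upstream of *Muc1*, *Muc4*, *Agr2*, *Spdef* or *Lgals4*, the 5 of 8 genes with an entry in the RefSeq promoter table. Of all 32851 promoter windows of that length, 3.17% held TGTTTAC, 4.30% held TGTTTGC, 3.84% held CAAAGTC and 10.7% held at least 1 of them. No motif is contained in another, and a match is a description of letters and not of binding. GC content of the windows was 54.8% for *Muc1*, 53.6% for *Lgals4* and 52.8% for *Spdef*, close to the median of 52.4% over all promoters, and was 43.6% for *Muc4* and 44.4% for *Agr2*. Within whole anchors, 73.8% of all 30542 anchors held at least 1 match, with a median of 0.507 matches per kb. The anchor between *Tff3* and *Tff2* held 6 matches in 3.089 kb (4 of CAAAGTC and 2 of TGTTTGC), or 1.94 per kb, and 98.1% of anchors held no more per kb. The anchor upstream of *Agr2* held 5 forkhead matches and no CAAAGTC in 5.303 kb (0.943 per kb), and the anchor at the first *Spdef* start held 4 forkhead matches and no CAAAGTC in 4.746 kb (0.843 per kb). The *Muc1* start anchor held 2 matches of each motif in 9.555 kb (0.628 per kb). The *Muc4* anchor held 3 TGTTTGC matches in 2.518 kb (1.19 per kb), and the *Tff1* and *Tff2* start anchors held 3 and 1 TGTTTGC matches with no CAAAGTC. Windows of 300 bases with 2 or more matches, such as those shown for the *Tff3*-*Tff2*, *Spdef* and *Agr2* anchors, were present in 19.5% of all anchors.

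*Muc1*, *Spdef* and *Lgals4* carried many loops, and *Muc4* and the trefoil genes carried few to moderate numbers. All 6 genes with an anchor had at least 1 loop in each of the 4 lists, as did 84.5% of the 10802 protein-coding genes with an anchor. For those 10802 genes the medians were 7, 6, 5 and 5 loops.

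**Figure D1:**
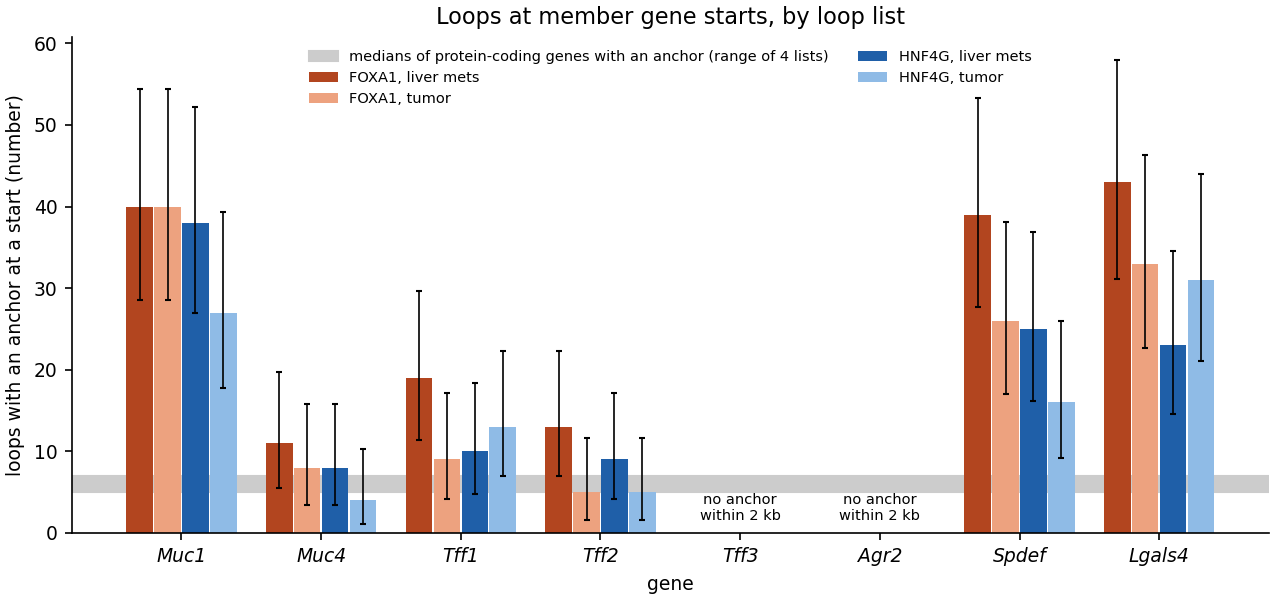
Number of loops with an anchor within 2 kb of a start (y axis) for each gene (x axis) in the 4 loop lists. Bars are counts, lines are exact Poisson 95% intervals, and the grey band spans the medians of protein-coding genes with an anchor (5 to 7 loops). Muc1, Spdef and Lgals4 reach 16 to 43 loops in every list, and Tff3 and Agr2 have no anchor to count.

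With FOXA1, the *Muc1* anchor took part in 40 loops in each line (interval 28.6 to 54.5). With HNF4G it took part in 38 loops in liver mets (26.9 to 52.2) and 27 in tumor (17.8 to 39.3), so the HNF4G tumor list was the lowest, and its interval overlapped those of the others. At least 95.8% of protein-coding genes with an anchor had no more loops than *Muc1*, whichever list was used. The *Muc1* anchor was 9.555 kb wide, wider than or as wide as 99.3% of anchors at protein-coding starts, and it also lay at starts of *Mir92b*, *Mtx1* and *Thbs3*, so its loops cannot be assigned to *Muc1* alone. Wide anchors carried more loops in general: the 167 start anchors of 8 kb or more had medians of 29, 22, 18 and 19 loops, against 7, 6, 4 and 4 for the 6813 anchors of 2 to 4 kb. The *Muc1* counts were above the upper quartiles of that widest class (39.5, 32, 26 and 28.5) in 3 lists and below it in the HNF4G tumor list.

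The 71 distinct *Muc1* loops joined it to 71 partner anchors, 35 upstream and 36 downstream, and 53 of the partners (74.6%, interval 63.4 to 83.3) were at an annotated start. Of these loops, 11 were in all 4 lists, and they spanned 14.5 to 141 kb. Their partners were the starts of *Rusc1*, *Clk2*/*Scamp3*, *Mtx1*/*Thbs3*, *Krtcap2*/*Trim46*, *Slc50a1* (a sugar transporter), *Efna1* (an ephrin ligand), *Adam15*/*Efna4* and *Dcst1*/*Dcst2*, an exon of *Efna4*, and 2 anchors with no annotated gene. Each loop also carries a value, read here as an adjusted p on the −log10 scale, with a ceiling of 20 (the lists do not name it). The loop to *Rusc1*, 141 kb upstream, had values of 8.90 and 7.93 with FOXA1 (liver mets, then tumor) and of 2.81 and 8.71 with HNF4G. The loop to *Krtcap2*/*Trim46*, 14.5 kb downstream, had 9.47, 3.54, 6.27 and 4.20. The loop to the gene-free partner shown above, 34.2 kb upstream, had 0.997, 0.400, 3.59 and 1.07. Values of these shared loops thus ranged widely from list to list, with no list highest throughout.

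A pair of neighbouring *Muc1* partners differed between the cell lines. The loop to the anchor at *Cks1b* (a regulatory subunit of cyclin-dependent kinases) and *Shc1* (an adaptor of receptor tyrosine kinases), 192 kb away, was in neither tumor list, and in liver mets it was at the ceiling of 20 with FOXA1 and at 3.11 with HNF4G. The loop to the anchor at *Zbtb7b* (a zinc finger transcription factor), 162 kb away, had 8.40 (FOXA1) and 4.80 (HNF4G) in tumor, and in liver mets it had 1.33 with FOXA1 and was absent with HNF4G. These were the highest-valued *Muc1* loops of FOXA1 in liver mets and in tumor, so they were picked by the values compared here. With 1 list per group the difference has no replicate check. Loops in both liver mets lists and in no tumor list were 4.74% of those at member starts and 3.39% at all protein-coding starts. Loops with a value of 2 or more at any member start were mostly those of *Muc1*: 8 of 13 and 10 of 16 with FOXA1, and 6 of 10 and 9 of 9 with HNF4G.

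With FOXA1, *Muc4* had 11 loops in liver mets (interval 5.49 to 19.7) and 8 in tumor (3.45 to 15.8). With HNF4G it had 8 (3.45 to 15.8) and 4 (1.09 to 10.2). Between 48.3% and 71.1% of protein-coding genes with an anchor had no more, a placing that rests on the 2 kb limit. With a limit of 5 kb *Muc4* had 29, 28, 19 and 19 loops, and with only the start of the gene record it had 0 in every list. Of its 18 distinct loops, 1 was in all 4 lists. It joined *Muc4* to the start of *Gm9556*, a pseudogene, 10.2 kb away, with values of 0.164, 0.289, 0.328 and 0.742. A loop of 59.2 kb from *Muc4* to *Muc20*, the neighbouring transmembrane mucin gene, was present in the FOXA1 list of liver mets alone, with a value of 0.0889. That is the lower tied value of that list, on which 13460 of its loops stood. No *Muc4* start loop reached a value of 2 in any list. Within 100 kb of any annotated *Muc4* start there were 127 distinct loops (96, 89, 77 and 61 in the lists), and 35 of them were in all 4 lists. Among them was a loop of 15.3 kb between anchors at starts of *Tnk2*, a non-receptor tyrosine kinase gene, which stood at the ceiling of 20 in every list.

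Loops at the starts of *Tff1* and *Tff2* numbered 46, with a median span of 158 kb, and 6 of them were in all 4 lists (13.04%) and 28 in 1 list (60.9%). For *Tff1*, FOXA1 gave 19 loops in liver mets (interval 11.4 to 29.7) and 9 in tumor (4.12 to 17.1), and HNF4G gave 10 (4.80 to 18.4) and 13 (6.92 to 22.2). For *Tff2*, FOXA1 gave 13 (6.92 to 22.2) and 5 (1.62 to 11.7), and HNF4G gave 9 (4.12 to 17.1) and 5 (1.62 to 11.7). The FOXA1 list of liver mets was the highest for both genes, and for each gene the intervals of all 4 lists overlapped. With a limit of 5 kb from the start the numbers were 28, 18, 11 and 20 for *Tff1* and 18, 11, 11 and 7 for *Tff2*.

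A loop of 18.5 kb between the starts of *Tff1* and *Tff2* was present in all 4 lists, with values of 0.242, 1.19, 0.146 and 0.446. None of these reached 2, and 0.146 was the lower tied value of the HNF4G list of liver mets. *Tff1* had 3 further loops in all 4 lists, to the anchor between *Tff3* and *Tff2* (29.5 kb), to the start of *Gm15318* (10.7 kb) and to an exon of *Gm15318* (7.80 kb), annotated as antisense and overlapping *Tff1*. The last of these had the highest value of any *Tff1* loop of FOXA1 in tumor (3.68), and its values elsewhere were 0.854 for FOXA1 in liver mets and 0.139 and 1.87 for HNF4G. *Tff2* had 2 further such loops, to that same *Gm15318* exon (10.7 kb) and to an exon of *Tmprss3* (39.1 kb), a transmembrane serine protease gene. Apart from each other, *Tff1* had 27 partner anchors and *Tff2* had 18, and 12 were shared, which is 44.4% of those of *Tff1* and 66.7% of those of *Tff2*.

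**Figure D2:**
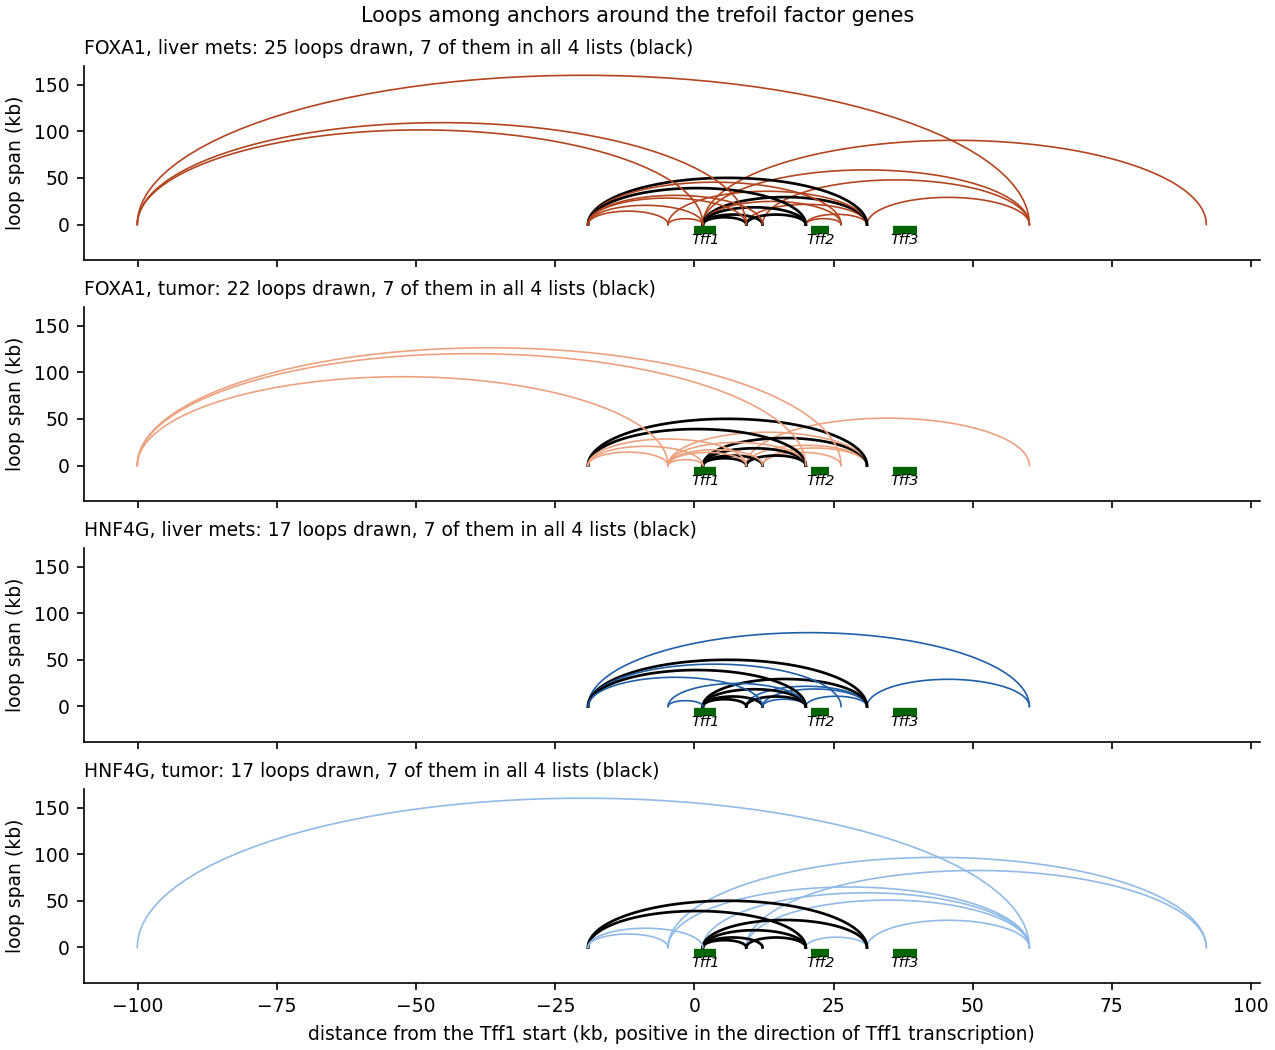
Loops with both anchors within 100 kb of a Tff1 start, plotted by distance from the Tff1 start (x axis, kb) with the arc height equal to the loop span (y axis, kb), 1 panel per loop list. Black arcs are the 7 loops in all 4 lists, coloured arcs the others of the 25, 22, 17 and 17 loops drawn, and green bars the 3 genes; no arc ends at Tff3, and the longest black arc spans 50.1 kb.

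*Tff3* had no loop of its own under the 2 kb rule, and 17, 13, 9 and 6 loops within 5 kb. The anchor 3.081 kb upstream of it, between *Tff3* and *Tff2*, was joined to *Tff1* in all 4 lists, with values of 0.649, 0.123, 0.938 and 0.171, and to *Tff2* in 3 lists, all but FOXA1 tumor. The values of 0.123 and 0.171 were the lower tied values of the tumor lists. This anchor was also joined in all 4 lists to the *Tmprss3* exon, 50.1 kb away. Within 100 kb of *Tff3* there were 33 distinct loops (22, 19, 17 and 16 in the lists), 7 of them in all 4 lists. This was the same number as at *Tff2*, since the windows of the genes overlap.

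Beyond 100 kb, *Tff1* and *Tff2* reached several anchors of *Slc37a1*, a sugar-phosphate transporter gene. The highest-valued *Tff1* loop in FOXA1 liver mets went to a *Slc37a1* start 155 kb away (2.26, with 1.62 in HNF4G tumor), and the highest in HNF4G liver mets went to another *Slc37a1* anchor 132 kb away (2.73, with 1.51 in HNF4G tumor).

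*Agr2* was the sparsest locus. It had no anchor at its start and 10 distinct loops within 100 kb, with 6 (interval 2.20 to 13.1) and 7 (2.81 to 14.4) for FOXA1 and 2 (0.242 to 7.22) and 3 (0.619 to 8.77) for HNF4G. Of these, 1 was in all 4 lists, a loop of 16.9 kb between a pair of gene-free anchors upstream of *Agr2*, with values of 1.41, 0.117, 1.35 and 0.167. The window of 100 kb on each side of the *Agr2* start held 5 anchors, against 10 to 18 around the first starts of the other genes. The window of 1000 kb held 23, against 55 to 97. Other loops ran between the upstream anchors and anchors beyond the gene, including the start of *Tspan13*, a tetraspanin gene.

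At *Spdef*, FOXA1 had 39 loops in liver mets (interval 27.7 to 53.3) and 26 in tumor (17 to 38.1), and HNF4G had 25 (16.2 to 36.9) and 16 (9.15 to 26). Between 88.3% and 96.3% of protein-coding genes with an anchor had no more. Most belonged to the anchor that holds the first start (46 of 66 distinct loops), and 21 belonged to a second anchor, chr17:27719896-27722437, which is 1.547 kb from a downstream start, with 1 loop between the pair counted at both. With only the start of the gene record, *Spdef* had 28, 22, 19 and 9 loops, and with a limit of 5 kb it had 68, 45, 45 and 31. Of the 66, 5 were in all 4 lists. They joined *Spdef* to *Hmga1* (an architectural chromatin protein gene), *Pacsin1* (an endocytic adaptor gene), the start and an exon of *Gm15458*, and an intron of *D17Wsu92e*. The *Hmga1* loop, 168 kb long, was the highest-valued *Spdef* loop of FOXA1 in tumor (4.35) and of HNF4G in liver mets (7.06), and it had 1.35 and 1.69 in the remaining lists. With FOXA1 in liver mets the highest value was on a loop of 248 kb to an *Anks1* exon (2.97), found in no other list. With HNF4G in tumor the highest value was the upper tied value of that list (1.99), which ranks no loop. The *Pacsin1* loop, 23.5 kb long, had 0.261, 1.24, 2.72 and 1.56.

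At *Lgals4*, FOXA1 had 43 loops in liver mets (interval 31.1 to 57.9) and 33 in tumor (22.7 to 46.3), and HNF4G had 23 (14.6 to 34.5) and 31 (21.1 to 44). Between 94.9% and 97.2% of protein-coding genes with an anchor had no more. The loops came from 3 anchors, which had 36, 15 and 24 distinct loops, and the first of them is also at a start of *Ech1*, an enoyl-CoA hydratase gene. With only the start of the gene record, *Lgals4* had 26, 17, 11 and 17 loops. The 8 loops in all 4 lists were short, with spans of 5.16 to 30.0 kb. Of these, 2 joined the first anchor to the other *Lgals4* anchors, 3 joined each of the 3 anchors to another anchor at an *Ech1* start, and 3 went to *Hnrnpl*, a splicing factor gene. The highest value of FOXA1 in tumor (7.18) was on a loop of 128 kb to *Actn4*, an actin crosslinker gene, which had 1.51 with HNF4G in liver mets and was absent from the other 2 lists.

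**Figure D3:**
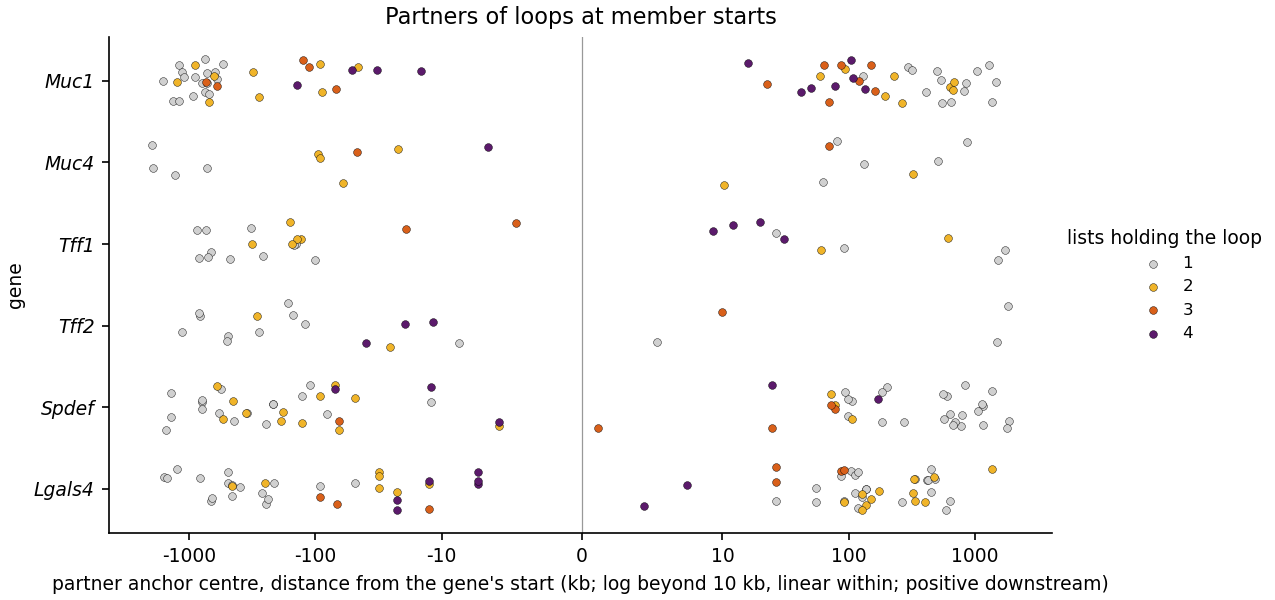
Distance of the partner anchor's centre from the gene's start (x axis, kb, logarithmic beyond 10 kb, positive downstream) for every loop at a member start, by gene (y axis, with random vertical spread). Colours give the number of lists holding the loop; none of the 90 loops spanning 500 kb or more is in 4 lists and 77 of them are in 1 list.

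Loops at these starts were found in all 4 lists more often than loops at starts in general. Of the 274 distinct loops, 31 (11.3%, interval 8.09 to 15.6) were in all 4 lists, against 5.5% of the 161537 distinct loops at protein-coding starts. Those in 1 list only were 148 (54.0%, interval 48.1 to 59.8), against 66% in general. Short loops recur more often than long ones, and so the shares were set side by side by span. Under 20 kb, 15 of 26 loops (57.7%, interval 38.9 to 74.5) were in all 4 lists against 34.2% at all protein-coding starts. From 20 to 100 kb it was 11 of 66 (16.7%, 9.57 to 27.4) against 11.7%, and from 100 to 500 kb it was 5 of 92 (5.43%, 2.34 to 12.1) against 2.17%. From 500 to 2000 kb it was 0 of 90 (upper bound 4.09%) against 0.173%. With the general shares weighted to the spans of the 274 loops, 6.85% would be in all 4 lists. The loops come from 6 genes and share anchors, *Muc1* alone gave 11 of the 31, and no test was made of this difference. Nor were the shares compared by anchor width. Of anchors at protein-coding starts, 99.3% were no wider than that of *Muc1*. For *Tff1*, *Tff2* and the first *Spdef* start, it was 86.3% to 90.6%, and for the remaining member anchors 31.5% to 78.1%. Both shares depended on how loops were matched and filtered. With 5 kb added to either end of each anchor, 50.4% were in all 4 lists and 18.6% in 1 list. The anchors of the 4 lists did not overlap one another, so such widening can also match loops at different, neighbouring anchors. With values under 2 left out, the shares were 5.56% and 80.6%. No share over all protein-coding starts was available for either setting, so these are not comparable with the general shares above.

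**Figure D4:**
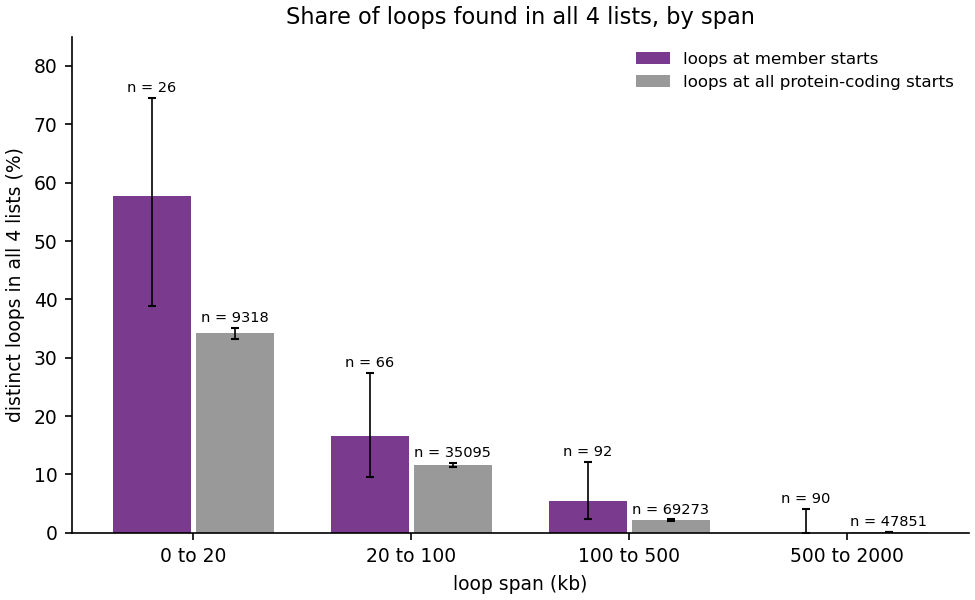
Percentage of distinct loops found in all 4 lists (y axis) by loop span (x axis, kb) for loops at member starts (purple) and at all protein-coding starts (grey). Lines are Wilson 95% intervals and n is the number of distinct loops; the share falls from 57.7% to 0% for the members and from 34.2% to 0.173% in general.

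The longest loops carried little beyond their presence. Of member loops spanning 500 kb or more, 26 of 45 and 16 of 26 with FOXA1, and 19 of 20 and 12 of 14 with HNF4G, had exactly the upper tied value of their list (1.87, 1.91, 1.99 and 1.99). At all protein-coding starts the shares at that value were 61.6%, 76.1%, 82.5% and 79.5%. Loops of 20 to 100 kb often had the lower tied value of their list (0.0889, 0.123, 0.146 and 0.171). Those were 16 of 44 and 20 of 39 member loops with FOXA1, and 9 of 38 and 12 of 34 with HNF4G. At all protein-coding starts the shares were 36.4%, 46.7%, 46.6% and 49.9%. At such ties a loop is not ranked above another, and a loop at the lower value is little more than listed.

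Partners of member loops were often starts of other genes. An anchor at an annotated start was the partner in 168 of 274 loops (61.3%, interval 55.4 to 66.9), against 42.5% at all protein-coding starts. These shares were not counted alike. Member loops were viewed from the member's own anchor. The general share counts a loop between a pair of starts once, although it could be viewed from either end. Counting it from both ends would raise the general share. No excess of start partners at these genes can therefore be read from the difference. The share was highest for *Muc1* (74.6%) and *Lgals4* (67.1%, interval 55.7 to 76.8), and lowest for *Tff2* (42.1%, 23.1 to 63.7) and *Tff1* (39.3%, 23.6 to 57.6). *Spdef* (57.6%, 45.6 to 68.8) and *Muc4* (55.6%, 33.7 to 75.4) lay between. The neighbourhoods differed too: among anchors within 100 kb of the first start, 73.3% were at starts for *Lgals4*, 66.7% for *Muc1*, 53.3% for *Muc4*, 43.8% for *Spdef*, 30.0% for *Tff2* and 27.3% for *Tff1*, and over all anchors 45.2% were. The part of gene density in the partner shares was not tested.

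The comparison of liver mets with tumor asks whether either factor's loops at these genes are more numerous in the metastatic line. Pooled over the 6 genes, the FOXA1 lists had 164 loops (liver mets) and 120 loops (tumor), 1.37 times as many (interval 1.07 to 1.74), and the HNF4G lists had 112 and 95, 1.18 times as many (0.889 to 1.57). The liver mets lists were also longer as a whole, and over all protein-coding starts the ratios were 1.18 for FOXA1 and 0.975 for HNF4G. As shares of the lists, the ratios were 1.13 (0.890 to 1.45) for FOXA1 and 1.15 (0.869 to 1.53) for HNF4G, and neither excluded 1. The FOXA1 ratio turned to 0.812 when only loops with a value of 2 or more were counted (13 against 16). Within 100 kb of the 8 genes, the numbers were 329 and 311 for FOXA1 (ratio 1.06, 0.903 to 1.24) and 279 and 258 for HNF4G (1.08, 0.910 to 1.29).

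For single genes the FOXA1 share ratio was 2.16 for *Tff2* (interval 0.721 to 7.72), 1.75 for *Tff1* (0.754 to 4.39), 1.24 for *Spdef* (0.738 to 2.13), 1.14 for *Muc4* (0.418 to 3.26), 1.08 for *Lgals4* (0.670 to 1.75) and 0.829 for *Muc1* (0.521 to 1.32). The HNF4G share ratio was 1.95 for *Muc4* (0.524 to 8.87), 1.76 for *Tff2* (0.529 to 6.68), 1.53 for *Spdef* (0.784 to 3.06), 1.38 for *Muc1* (0.818 to 2.34), 0.752 for *Tff1* (0.295 to 1.86) and 0.725 for *Lgals4* (0.404 to 1.28). Every one of these 12 intervals included 1. For *Tff1* and *Tff2* pooled, a pairing made after their values were seen, FOXA1 had 31 and 13 loops, with a share ratio of 1.98 (1.005 to 4.12), and HNF4G had 18 and 17, with 1.03 (0.503 to 2.14). With a 1.5-fold rule among genes with 10 or more loops in the pair of lists, *Tff1* and *Tff2* were higher for FOXA1 and *Muc4*, *Tff2* and *Spdef* were higher for HNF4G. None of the 6 was lower by that rule for either factor. Among protein-coding genes the rule called 11.4% higher and 15.3% lower for FOXA1, and 12.6% higher and 19.5% lower for HNF4G.

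**Figure D5:**
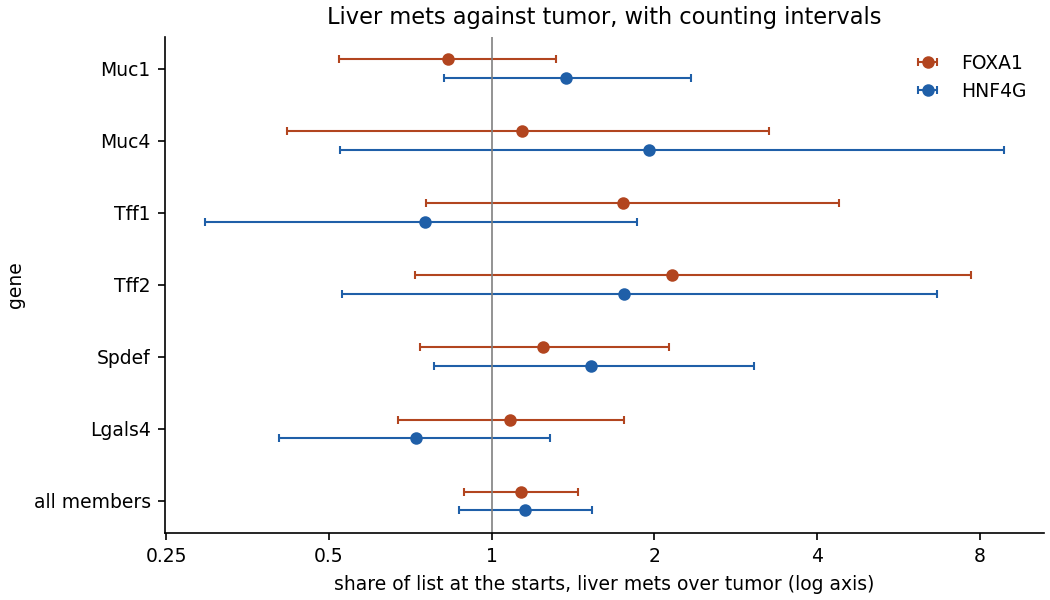
Share of each list at a gene's starts in liver mets over that in tumor (x axis, logarithmic) for FOXA1 (red) and HNF4G (blue), by gene (y axis) and over all members. Points are ratios and lines are Clopper-Pearson 95% intervals; every interval spans 1.

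Between the factors, FOXA1 had more loops at these starts than HNF4G in liver mets (164 against 112, ratio 1.46, interval 1.14 to 1.88) and in tumor (120 against 95, 1.26, 0.957 to 1.67). As shares of the lists the ratios were 0.910 (0.712 to 1.17) and 0.926 (0.701 to 1.22), both below 1 with intervals that included it. Within 100 kb of the genes, FOXA1 had 329 loops and HNF4G 279 in liver mets, and 311 and 258 in tumor. The share ratio there was 0.733 (0.623 to 0.863) in liver mets, an interval below 1. In tumor it was 0.883 (0.747 to 1.05), an interval that included 1. Loops within 100 kb had a median span of 59.8 kb, and among short loops the factors were closer in number in general. At all protein-coding starts in liver mets, loops under 20 kb numbered 7153 with FOXA1 and 6392 with HNF4G. Those of 20 to 100 kb numbered 20736 and 16105, and those of all spans 78610 and 51132. The ratios within 100 kb were not compared with those of other loci, and the part of span was not tested. They are therefore not shown to be particular to these genes. At the starts, loops in FOXA1 lists only numbered 117 of 274 (42.7%, interval 37 to 48.6) and those in HNF4G lists only 55 (20.1%, 15.8 to 25.2), against 46.7% and 26.6% of loops at all protein-coding starts. Of the 274, 17 (6.20%) were in both FOXA1 lists and in no HNF4G list, against 5.31% of loops at all protein-coding starts. Those in both HNF4G lists and in no FOXA1 list were 7 (2.55%), against 1.99%. The FOXA1 list of liver mets alone held 69 (25.2%), against 23.5%.

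Of 10 other mucin genes, 4 had an anchor at a start, against the 49.7% of all protein-coding genes: *Muc2*, *Muc5ac*, *Muc5b* and *Muc20*. *Muc20* had 16, 15, 13 and 11 loops in the lists, 3 of the distinct ones in all 4. *Muc2*, the intestinal gel-forming mucin, had 4, 4, 0 and 1, *Muc5ac*, the gastric surface mucin, had 4, 3, 2 and 3, and *Muc5b*, an airway gel-forming mucin, had 2, 2, 1 and 5. None of these gel-forming mucin genes had a loop in all 4 lists.

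Of 23 gastric and goblet cell secretory genes, 13 had an anchor, led by *Bcas1* (55 distinct loops), *Zg16* (47) and *Gkn3* (41), and their medians were 10, 9, 8 and 5 loops, beside the general medians of 7, 6, 5 and 5. Of 19 mucin glycosylation genes, 14 had one, led by *Galnt4* (46), *St3gal4* (39) and *B3gnt3* (34), with medians of 8, 7, 4.5 and 4.5. Of 12 regulators of mucous cells, 10 had one, led by the ETS and Krüppel-like factor genes *Ehf* (72), *Klf5* (41) and *Elf3* (39), with medians of 12, 9.5, 10 and 9.5. Of all protein-coding genes, 49.7% had an anchor at a start, and no test was made of these lists. *Ehf* had 40, 33, 20 and 23 loops. No start of the 8 genes was joined to a start of any gene of these lists other than *Muc20*.

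Loops are no measure of expression, so cell type markers are given as description only, over the anchors of all 4 lists together. All 6 genes listed as ductal markers had an anchor at a start, with 8 to 62 loops per list. So did 1 of 5 hepatocyte markers (*Apoa1*), 0 of 5 acinar, 2 of 5 fibroblast, 1 of 5 leukocyte and 0 of 4 endothelial markers. Among all protein-coding genes the share was 49.7%. By loop numbers over the 4 lists, the genes most like each member (smallest sum of absolute differences) were *Rnf43* and *Tns3* for *Muc1* (6 each), *Arl2bp* and *Ereg* for *Muc4* (2 each), *Mapt* (1) and *Slc26a2* (3) for *Tff1*, *Maco1* (0) and *Adk* (2) for *Tff2*, *Klf16* (6) and *Tnni1* (7) for *Spdef*, and *Tuba4a* (1) and *Abca3* (5) for *Lgals4*. For *Muc4*, 16 genes lay within this difference of 2, and for *Tff2*, 3 genes did.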

How the data were processed

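The 4 loop lists were deposited by the authors, 1 per group. HiC-Pro (3.1.0, per the labels) and hichipper were used on mm10 with DpnII digestion. The source of anchors, the minimum of paired reads and the joining of replicates were not given in the sources used here. Each loop has an unnamed value in the deposited lists, read as −log10 of an adjusted p from its tied runs and its ceiling of 20, and the deposited display score follows from it. FOXA1 lists were matched to groups by the factor and line in the list names. The titles gave the groups, and no batch was labelled.

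Starts were all transcript starts of GENCODE M21. Loops were counted with pandas 2.3.3 and intervals computed with scipy 1.17.1. The matching of starts to anchors, the ratio intervals and the motif search were checked on simulated data, and the counting of loops was not. The 8 genes, the wider lists, the motifs and the rule for naming partners (in all 4 lists, or the highest value in a list) were chosen with earlier results of these data known. A *Tff2* partner that this rule names is not reported here. Promoter bases after the start are not shown. Alternatives varied the distance, the value minimum and list-size scaling.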

Additional observations from a re-analysis of the deposited data

Results flagged for a closer look

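For *Tff1* and *Lgals4* the FOXA1 and HNF4G lists moved in opposite directions between the lines, before and after division by list size. The number of loops at *Tff1* starts in liver mets over tumor was 2.11 for FOXA1 (19 against 9) and 0.769 for HNF4G (10 against 13). For *Lgals4* it was 1.303 for FOXA1 (43 against 33) and 0.742 for HNF4G (23 against 31). With 1 list per group, no test of this difference was made, and each of these 4 ratios had an interval that included 1. After division by list size only, *Muc1* also moved in opposite directions, at 0.829 for FOXA1 and 1.38 for HNF4G, with intervals that included 1. How many of all protein-coding genes do so was not counted.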

How the results depend on the processing

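No paired analysis was possible because each list covers both replicates and its columns carry no replicate, so leaving out a replicate could not be run either. Of the alternatives to the pooled ratios, shares and counts, 52 values stayed near the value reported (within its interval or, for the number of genes with no anchor, within 1.5 times), 10 did not and 2 turned direction. With a value of 2 or more, the liver mets to tumor ratio at starts turned to 0.812 for FOXA1, the ratio within 100 kb moved to 1.41 for FOXA1 and 0.778 for HNF4G, the FOXA1 to HNF4G ratio in tumor to 1.78, the share of loops in all 4 lists to 5.56% and the share in 1 list to 80.6%. Divided by list size, the FOXA1 to HNF4G ratio turned to 0.910 in liver mets and moved to 0.926 in tumor, and the FOXA1 ratio within 100 kb moved to 0.877; the construction of this alternative accounts for it. With anchors widened by 5 kb, the shares were 50.4% in all 4 lists and 18.6% in 1. With starts within 5 kb, 1 gene (*Agr2*) had no anchor, and with starts inside the anchor 3 had none (*Muc4*, *Tff3* and *Agr2*). Of single-gene counts, 77 stayed within their Poisson interval and 51 did not. Except for division by list size, the cause was not tested. Read depth is unknown and limits which absent loops can be called absent.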
